A study of Mus musculus with 9 samples.

Results

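Ripply3, Tbx1, Pax1, Pax8, Pax9 and Eya1 are regulators of the pharyngeal endoderm, the front part of the gut tube whose pouches give rise to the thymus, the parathyroid glands and parts of the ear. They are 6 of the 12393 genes with a probe set of their own on the array, and they were read by 7 of its 22690 probe sets, namely every probe set that the platform annotation assigns to a single symbol among these names. Pax9 had 2 probe sets and each other gene had 1. The genes were chosen on the stage differences of these same 9 arrays, so their values are given below as a description and no test of them is reported.

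Wild type mouse embryos gave the mid-foregut tissue, taken at 16-20 somites (embryonic day 8.5), 21-25 somites (embryonic day 9.0) and 26-30 somites (embryonic day 9.5). Somites are the blocks of mesoderm whose number stages an embryo. Each stage had 3 arrays, each hybridised with RNA from a pool of 5 to 10 foreguts, so the spread between replicates is one between pools, and 3 arrays a stage set the precision. Per the labels' protocols, the excised tissue lay behind the pharyngeal arches and ahead of the liver, which places the region where these 6 genes are best known at or beyond the front edge of the dissection. No strain, sex or transgene is named in the labels.

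Tbx1 is a T-box transcription factor needed for the growth and segmentation of the pharyngeal apparatus, and loss of a copy of its human counterpart contributes to DiGeorge syndrome. Ripply3 binds T-box proteins and joins them to corepressors of the Groucho/TLE family, and in the mouse it dampens the activity of Tbx1 in the pharynx. Pax1 and Pax9 are closely related paired-box factors of the pharyngeal pouches and of the sclerotome, the part of the somite that forms the vertebrae. Pax8 is a paired-box factor of the thyroid, kidney and inner ear, and Eya1 is a coactivator and phosphatase that works with sine oculis homeodomain proteins and is needed for the thymus and parathyroid glands.

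Promoter sequences were at hand for Tbx1, Pax1, Pax8 and Pax9, but not for Ripply3 or Eya1. Among the genes with a sequence, Tbx1 is shown because its arrays at the last stage lay below all others. The gene has 2 RefSeq starts on the minus strand of GRCm38.p6. The sequences run from 250 bases before to 50 bases after each start, and capitals mark matches to the GC box GGGCGG on either strand. The single Tbx1 probe set gives a single value per array, and which of these starts the measured RNA came from was not tested.
Tbx1, chr16:18588850-18589149: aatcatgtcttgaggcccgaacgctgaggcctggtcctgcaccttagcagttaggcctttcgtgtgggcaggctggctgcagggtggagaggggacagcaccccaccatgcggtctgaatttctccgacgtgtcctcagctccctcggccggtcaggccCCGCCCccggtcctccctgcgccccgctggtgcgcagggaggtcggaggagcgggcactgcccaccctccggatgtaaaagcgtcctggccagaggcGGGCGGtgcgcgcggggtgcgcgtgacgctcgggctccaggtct
Tbx1, chr16:18590622-18590921: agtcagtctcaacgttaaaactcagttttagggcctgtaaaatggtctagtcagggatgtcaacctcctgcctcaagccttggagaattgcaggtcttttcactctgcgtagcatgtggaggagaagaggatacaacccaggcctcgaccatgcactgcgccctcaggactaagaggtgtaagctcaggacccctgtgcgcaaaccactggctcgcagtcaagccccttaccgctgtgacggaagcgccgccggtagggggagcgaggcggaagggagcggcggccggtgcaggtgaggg

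The Tbx1 sequence with capitals held 2 GC boxes and 26 CG dinucleotides, and the other held 0 GC boxes and 16 CG dinucleotides, against a median of 7 over the 32851 RefSeq promoters of the same length. A GC box was present in 35.7% of those promoters. Both Tbx1 sequences, and those of Pax1, Pax8 and Pax9, were also searched on both strands for the T-box core GGTGTGA, the forkhead core TGTTTAC, the GLI core TGGGTGGTC and the sine oculis homeodomain core TCAGGTTT. These letters were found in 0 of the 5 sequences, and in 3.98%, 3.65%, 0.253% and 1.31% of all promoters in that order. Pax1 held 2 matches and Pax8 1 match to CCAAT, which 37.4% of promoters hold.

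Signals are MAS5 intensities on a linear scale. Changes are log2 differences, later minus earlier stage, of log2(signal + 26.1) with their SE from limma fitted to all 9 arrays. On that scale the differences of dim genes come out smaller than on the raw signal. A gene was tested if its mean log2 value was at or above the 30th percentile of all genes, 6.66, which corresponds to a signal of 75.1. Ripply3, Tbx1 and Pax8 passed this filter, with mean log2 values of 9.41, 8.48 and 7.30. Eya1 (6.51), Pax9 (6.14) and Pax1, which was lower still, did not, and their differences come from the same fit made without the filter. Dim signals on such arrays are close to the noise, and detection calls were not used here.

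**Figure D1:**
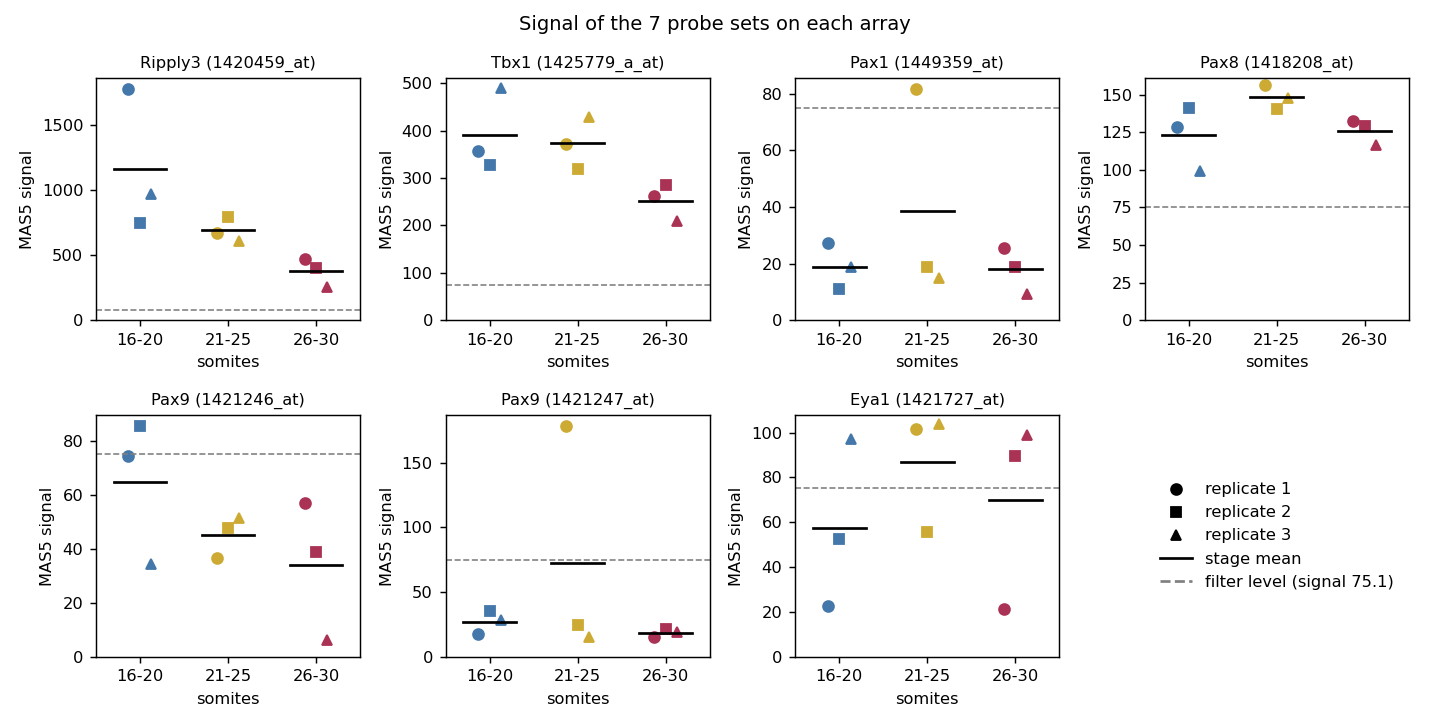
MAS5 signal of each of the 7 probe sets (linear axes from 0) against somite stage; symbols are the 3 replicate arrays of a stage, black lines are stage means and the dashed line is the filter level of 75.1. The 3 arrays at 26-30 somites lie below all others for Ripply3 and Tbx1, and most points of Pax1 and Pax9 lie under the dashed line.

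Ripply3 had the widest stage difference of the group and was lower at each later stage. Its signal (probe set 1420459_at) was 1776, 746.4 and 971.3 at 16-20 somites, 668.1, 797.4 and 611.3 at 21-25 somites, and 471.9, 401.8 and 256.5 at 26-30 somites. All 3 arrays of the last stage lay below all 6 earlier arrays, while the first stages overlapped because 21-25 somites replicate 2 read above 16-20 somites replicate 2. The stage means were 1165 ± 541, 692 ± 95.4 and 377 ± 110 (SD, n = 3 each). The log2 difference of 26-30 against 16-20 somites was -1.51 ± 0.32, and the mean at 26-30 somites was 0.323 of that at 16-20 somites. Of the 8675 tested genes, 14 had a lower difference over this interval.

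The difference was spread over both steps for Ripply3. At 21-25 against 16-20 somites it was -0.64 ± 0.32, and the stages overlapped. At 26-30 against 21-25 somites it was -0.87 ± 0.32, with no overlap. The array furthest from its stage was 16-20 somites replicate 1, at 1776. Without that array the whole-interval difference was -1.16 and that of the first step -0.30.

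Tbx1 was lower at the last stage than at both earlier ones, and those overlapped. Its signal (probe set 1425779_a_at) was 358.1, 327.6 and 489.7 at 16-20 somites, 372.8, 318.8 and 428.6 at 21-25 somites, and 262.4, 284.5 and 208.7 at 26-30 somites. The first stages overlapped over nearly their whole ranges, and the last lay below both without overlap. The stage means were 392 ± 86.1, 373 ± 54.9 and 252 ± 39.0 (SD, n = 3 each). The log2 difference was -0.05 ± 0.23 at 21-25 against 16-20 somites, -0.52 ± 0.23 at 26-30 against 21-25 somites and -0.58 ± 0.23 over the whole interval. Here 593 of the 8675 tested genes had a lower difference over the whole interval, so Tbx1 lay much closer to the bulk of genes than Ripply3.

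Pax8 varied least of the 6 genes. Its signal (probe set 1418208_at) was 128.4, 141.5 and 99.5 at 16-20 somites, 156.8, 140.8 and 147.9 at 21-25 somites, and 132.3, 129.4 and 116.8 at 26-30 somites. The arrays at 26-30 somites lay below those at 21-25 somites, by a log2 difference of -0.20 ± 0.22 that is smaller than its error. Over the whole interval the difference was 0.04 ± 0.22 and the stages overlapped. All 9 values were above the filter level, within a range of 0.54 on the log2 scale, against 2.67 for Ripply3 and 1.14 for Tbx1.

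Eya1 varied more between replicates than between stages. Its signal (probe set 1421727_at) was 22.6, 52.6 and 97.2 at 16-20 somites, 101.7, 55.5 and 103.7 at 21-25 somites, and 21.2, 89.8 and 99.1 at 26-30 somites. Every stage held both arrays under the filter level and arrays above it. The log2 difference was 0.51 ± 0.44 at 21-25 against 16-20 somites, -0.33 ± 0.44 at 26-30 against 21-25 somites and 0.18 ± 0.44 over the whole interval, with overlap in each.

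Pax9 was dim, and its probe sets did not give the same pattern. The brighter, 1421246_at, read 74.4, 85.5 and 34.5 at 16-20 somites, 36.6, 47.6 and 51.4 at 21-25 somites, and 57.1, 38.7 and 6.3 at 26-30 somites. Its whole-interval difference was -0.65 ± 0.36 with overlap, and -0.26 without 26-30 somites replicate 3, the array at 6.3. The other, 1421247_at, lay between 15.1 and 35.2 on 8 arrays and at 178.6 on 21-25 somites replicate 1, where the first read 36.6. Its whole-interval difference was -0.24 ± 0.49.

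Pax1 was the dimmest member. It (probe set 1449359_at) read 27.3, 10.9 and 18.6 at 16-20 somites, 81.8, 18.7 and 15 at 21-25 somites, and 25.6, 18.9 and 9.3 at 26-30 somites. As for the second Pax9 probe set, 8 of 9 values were under the filter level and the exception was 21-25 somites replicate 1. The whole-interval difference was -0.03 ± 0.34, and without that array the difference of the first step was -0.05 in place of 0.39 ± 0.34.

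**Figure D2:**
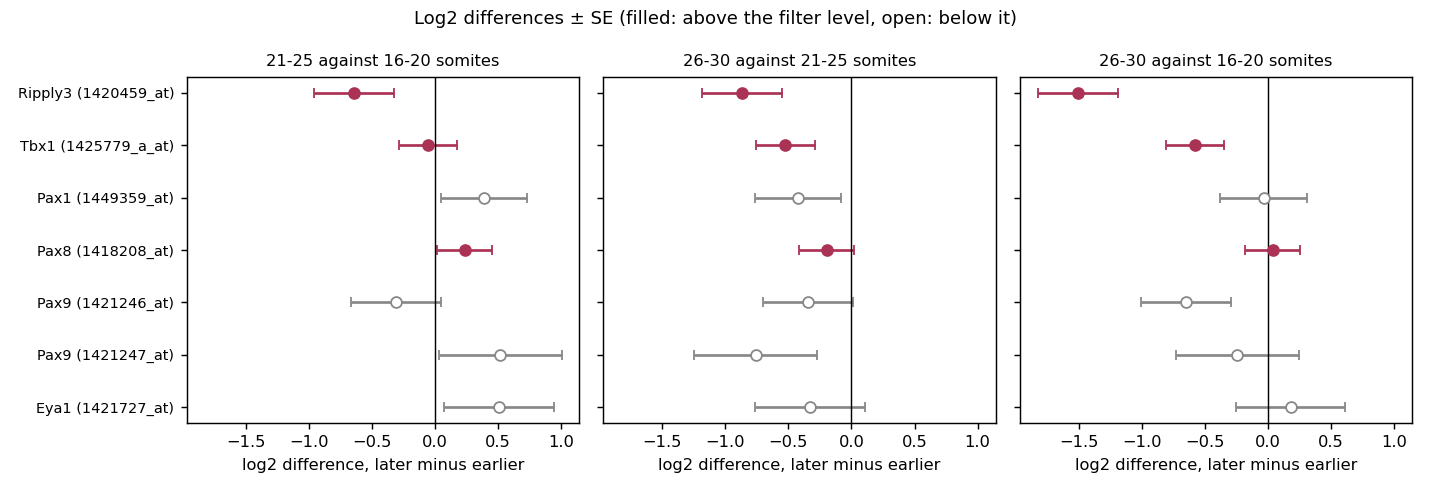
Log2 differences (later minus earlier stage, on a common axis) ± SE from limma for the 7 probe sets, with a panel for each step and for the whole interval; filled points are genes above the filter level and open points those below it. Ripply3 lies left of 0 in all panels, and Tbx1 is at -0.05 in the first step and at -0.52 in the second.

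Over the whole interval 2 of 6 members, Ripply3 and Tbx1, had all 3 later arrays below all 3 earlier ones, and 0 had them above. Among the 8675 tested genes this was so for 10.2% (below) and 11.2% (above). In the first step the counts were 0 below and 0 above, against 7.30% and 6.94% of tested genes. In the second step they were 3 below (Ripply3, Tbx1 and Pax8) and 0 above, against 4.84% and 4.51%. Since these differences chose the members, nothing is read from the counts. By limma 0 of 8675 genes, or 0%, had an adjusted p under 0.05 in each of the 3 comparisons, with 967 genes at an unadjusted p under 0.05 over the whole interval, 960 in the first step and 353 in the second. The median log2 difference over all 6 members was -0.31 over the whole interval, 0.09 in the first step and -0.38 in the second, beside medians of 0.01, 0.00 and 0.01 over all tested genes.

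The members did not form a single pattern over the 9 arrays. Each gene was centred on its own mean log2 value, and the root-mean-square difference between genes was taken over the arrays as a description. Ripply3 and Tbx1 lay on the same side of their means on 6 arrays, with a difference of 0.55. The widest pair was Ripply3 and Eya1, at 1.08, and Eya1 and Pax9 lay on the same side on 1 array. Among genes outside the group, those closest to Ripply3 were Pop4, a subunit of ribonuclease P and MRP (0.35), Galnt3, an enzyme of O-glycosylation (0.39), and Pnliprp1, a lipase-related gene (0.39). Pop4 read 1190.2 on 16-20 somites replicate 1 and 266 on 26-30 somites replicate 3, the arrays on which Ripply3 was highest and lowest. Closest to Tbx1 were Sh2b2, an adaptor protein of receptor signalling (0.12), Laptm5, a lysosomal membrane protein of blood cells (0.15), and Gm26752 (0.15). Taok1, a protein kinase (0.07), Sec16a, a component of endoplasmic reticulum exit sites (0.09), and 1810021B22Rik (0.09) were closest to Pax8. All these genes were picked from 8675 for likeness, and a small value for a gene that varies little says only that both were nearly flat.

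The endoderm content of the pools was read from 14 markers of endoderm and epithelium. Among them 13 passed the filter, and the brightest were the keratin gene Krt8 and the forkhead gene Foxa1, with mean signals of 3673 and 2396. Shh, a ligand of the gut epithelium, was below the filter level, between 0.7 and 38.3. The mean log2 value of the 13 markers was 9.34 ± 0.20 at 16-20 somites, 9.06 ± 0.33 at 21-25 somites and 9.34 ± 0.13 at 26-30 somites (SD, n = 3 each). This mean hides markers that went both ways, 7 positive and 6 negative at 26-30 against 16-20 somites. Krt18, a keratin gene, had a log2 difference of -1.31 ± 0.30 and Spint1, a protease inhibitor gene, -0.42 ± 0.21, both with all later arrays below. Spint2, a related inhibitor gene, had 0.71 ± 0.28 with all later arrays above, and 0 of the 13 passed in limma. The highest array of the mean was 16-20 somites replicate 2 (9.55) and its lowest 21-25 somites replicate 2 (8.69). On 16-20 somites replicate 2, which also had high liver markers as described below, the markers disagreed. The keratin genes Krt8 (7627), Krt18 (5459) and Krt19 (480) had their highest signal there, while Foxa1 (1383) and Sox2 (182) had their lowest. The part of liver tissue in these values was not tested.

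Taken relative to the marker mean on the same array, Ripply3 differed by -1.51 over the whole interval, and its arrays at 26-30 somites again lay below all others. The difference was -0.37 in the first step and -1.14 in the second. Tbx1 relative to the marker mean differed by -0.58 over the whole interval, by 0.22 in the first step and by -0.80 in the second, again with all 3 last arrays below. The choice of marker moved these values. Relative to each of the 13 markers alone, the whole-interval difference of Ripply3 lay between -2.55 (Sox2) and -0.20 (Krt18), with all last arrays below for 9 markers. That of Tbx1 lay between -1.62 (Sox2) and 0.73 (Krt18), positive for 3 markers, the keratin genes Krt8, Krt18 and Krt19, and negative for 10. Relative to Krt18 all last arrays of Tbx1 lay above those at 16-20 somites. On the scale of the marker mean Pax8 differed by 0.51 in the first step, with all later arrays above, by -0.48 in the second, with all later arrays below, and by 0.04 over the whole interval with overlap. Eya1 differed by 0.78 in the first step with all later arrays above, and its arrays overlapped in the second step (-0.61). The marker mean of the middle stage was 0.28 below that of each other stage on the log2 scale, within the spread of its arrays. In pooled tissue, fewer expressing cells and less RNA per cell cannot be told apart, and endoderm content was not shown to be constant. General endoderm markers also do not separate pharyngeal from more posterior endoderm. Which cells of the pools the RNA of Tbx1 or of the other members came from was not measured, so an endoderm source is not shown.

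**Figure D3:**
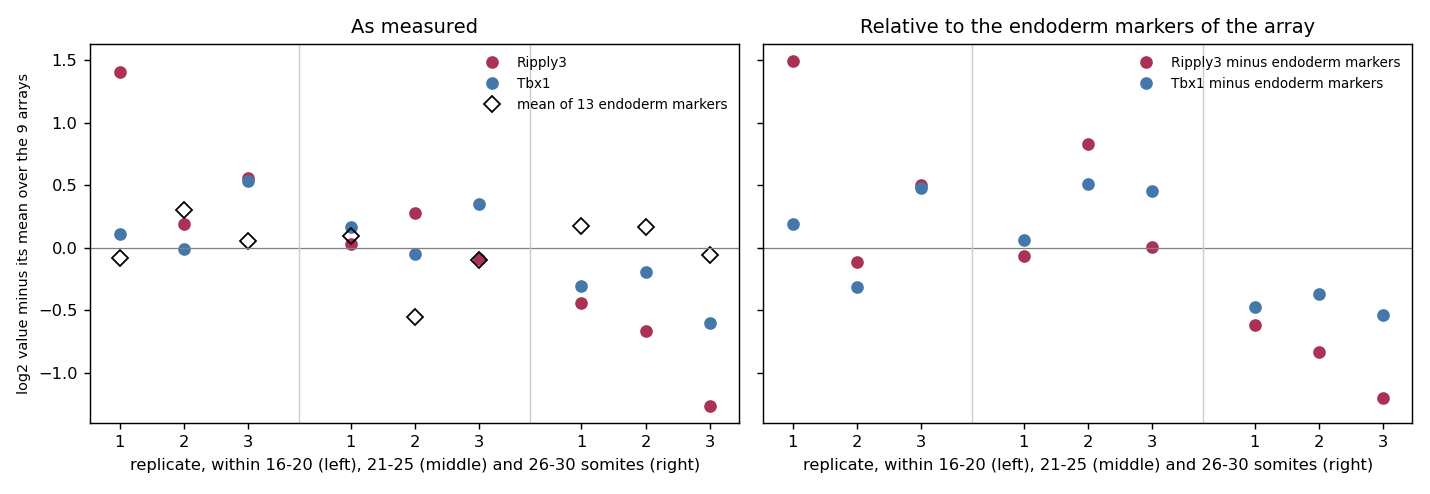
Log2 values on the 9 arrays, each minus its mean over the arrays (y axis), by stage and replicate (x axis), for Ripply3, Tbx1 and the mean of 13 endoderm markers (left) and for both genes relative to that mean (right); relative to keratin genes alone Tbx1 did not go the same way. In both panels the 3 arrays at 26-30 somites are the lowest for each gene.

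Array 21-25 somites replicate 1, where Pax1 and the Pax9 probe set 1421247_at stood out, also had the highest signals of the paraxial mesoderm list. The 13 measured markers of somites and sclerotome summed to 2439 on that array, and to 1119 to 1634 on the other 8. Its Meox1 signal, from a homeobox gene of somites, was 766.5 and its Foxc2 signal, from a forkhead gene of paraxial mesoderm, 573.4, the highest of the 9 arrays for both. Uncx and Nkx3-2, homeobox genes that mark sclerotome, read 9.2 and 6.4 there. Of the 13 markers 7 were under the filter level on average. The sum of 17 markers of arch mesenchyme and neural crest was also highest there, at 4982 against 2712 to 3523 elsewhere. Of the brightest genes of that list on average, Prrx1 had its highest signal on that array (1909.3) and Barx1 did not (327.8). The array was not high for these lists alone. It also had the highest sums of the neural tube list (2457), the otic and epibranchial list (738) and the lists of Tbx1 inputs and targets (16954), pouch and gland factors (3113), other T-box genes (2101) and partners of Eya1 (3047), and the highest median signal of the 9 arrays, 145.15 against 112.8 to 137.6. The part of other tissues, or of the array's signal range, in the Pax1 and Pax9 signals was not tested.

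**Figure D4:**
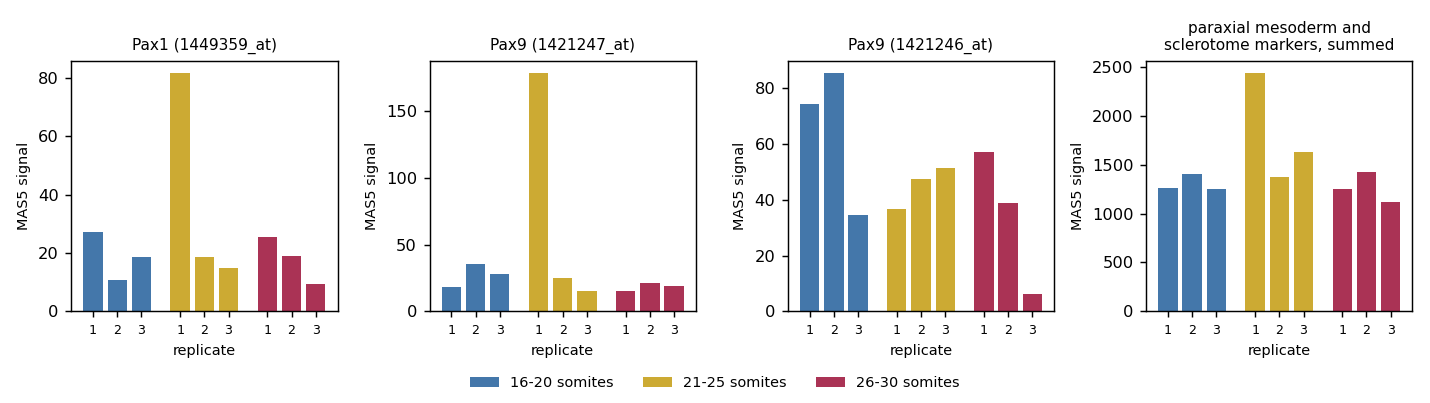
MAS5 signal per array (linear axes from 0; bars are single arrays in replicate order, colours are stages) of Pax1, of both Pax9 probe sets and of 13 paraxial mesoderm and sclerotome markers summed. Pax1, 1421247_at and the sum have their highest bar on 21-25 somites replicate 1, and 1421246_at does not.

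Other arrays stood apart as well. The highest signal was 27480 to 32584 on 3 arrays, 21-25 somites replicate 1 and both replicates 1 and 2 of 26-30 somites, against 43792 to 61749 on the other 6, so their range was narrower. Leaving out these 3 arrays leaves a single array for the last stage, which was given the spread of the remaining arrays. That array, 26-30 somites replicate 3, was the lowest of the 9 for Ripply3 (256.5) and Tbx1 (208.7). The whole-interval difference was then -1.98 for Ripply3, -0.81 for Tbx1 and -0.05 for Pax8. The second step gave -1.36, -0.75 and -0.25 in the same order. On 16-20 somites replicate 2 markers of liver and heart were high. The 13 hepatic markers, led by Ttr and Afp, summed to 37115 there and to 1608 to 8986 elsewhere, and the 17 cardiac markers, led by Myh6 and Actc1, to 19834 against 2842 to 8132. Among markers whose highest array exceeded 4 times their median, the hepatic genes Afp, Ttr, Apoa1, Apoa2, Apob, Apoc2, Serpina1b, Fgb and Fgg, the cardiac genes Myl4 and Myl7, and Uncx had their highest signal on that array. Dlx5 and Elavl3 had theirs on 21-25 somites replicate 1, Gsc, Osr2, Hlx and Nkx3-2 on 26-30 somites replicate 2, Hmx3 on 26-30 somites replicate 3 and Gata3 on 16-20 somites replicate 1, all of these being below the filter level on average. With 16-20 somites replicate 2 left out beside the narrow-range arrays the whole-interval differences were -2.25 for Ripply3, -0.92 for Tbx1 and 0.04 for Pax8. The otic and epibranchial list, of tissues that also use Pax8, Eya1 and Tbx1, summed to 331 to 625 at 16-20 somites, 478 to 738 at 21-25 somites and 445 to 573 at 26-30 somites over 9 genes. Sox10 and Neurog2 were its brightest, and Oc90, a gene of the otic vesicle, lay between 4.4 and 13.6 on all arrays. The nephric and coelomic list, where Pax8 is also used, summed to 925 to 1429, 887 to 1099 and 971 to 1102 in the same order over 8 genes, with Tcf21 and Sim1 the brightest. Neural tube markers, led by Nes and Dll1, summed to 1493 to 1764, 1296 to 2457 and 1509 to 1863 over 12 genes. Lung and foregut mesenchyme markers, led by Gli2 and Isl1, summed to 4886 to 5051, 5046 to 6656 and 6438 to 7642 over 16 genes, and their sums at 26-30 somites lay above all at 16-20 somites. The part of these tissues in the members' values was not tested.

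The genes that work with the members were taken from lists written with earlier results of these arrays known, and by limma 0 genes of each list passed in either direction. For Tbx1, the list held genes reported to act above or below it in the pharynx or heart field, of which 13 of 21 were tested. Over the whole interval 11 of these differences were positive and 2 negative, with a median of 0.36, and 3 genes had all later arrays above and 0 had them below. Over all tested genes 50.8% of differences were positive, 11.2% had all later arrays above and 10.2% had them below, and the same shares apply to the lists that follow. In the first step 9 were positive and 4 negative (median 0.36), and in the second 4 and 9 (median -0.14). The mean log2 value of the 13 genes was lowest on 16-20 somites replicate 2, the array with high liver and heart markers. It was 8.46 there, 8.80 and 8.86 on replicates 1 and 3 of that stage, and 9.15, 9.21 and 8.88 at 26-30 somites. The whole-interval counts and median therefore lean in part on that array. The widest was Crkl, an adaptor protein whose gene lies in the human DiGeorge deletion, with a signal of 740 ± 273 at 26-30 somites and 299 ± 142 at 16-20 somites (log2 difference 1.30 ± 0.41, adjusted p of 0.346). Its other 3 probe sets gave 0.09, 0.12 and -0.38. Aldh1a2, which makes retinoic acid, had a difference of 1.05 ± 0.39 (adjusted p of 0.372). Cyp26a1, which degrades retinoic acid, had 75.9 ± 52.2 at 26-30 somites and 136 ± 29.5 at 16-20 somites, with overlap. It was under the filter level on 2 of 3 arrays at 26-30 somites (32.7 and 61.1), and so was its mean log2 value there. Cyp26a1 was thus tested only through its earlier arrays, and no log2 difference is given for it. The counts and medians of this list include it. Vegfa, a growth factor of blood vessels, had 0.77 ± 0.28 (adjusted p of 0.371) and -0.47 in its other probe set. Without 16-20 somites replicate 2 the difference was 0.86 for Crkl and 0.69 for Aldh1a2.

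For Ripply3, the list of Ripply genes and Groucho/TLE corepressors had 6 genes on the array and 3 tested, all with positive differences over the whole interval and a median of 0.23. Tle4, a Groucho-type corepressor, had a signal of 1168 ± 460 at 26-30 somites and 583 ± 263 at 16-20 somites, a difference of 0.98 ± 0.35 (adjusted p of 0.363), with overlap of the arrays and -0.04 in a dim second probe set. Tle1 (0.23 ± 0.22, adjusted p of 0.694) and Tle3 (0.18 ± 0.21, adjusted p of 0.761) also overlapped. A second Tle1 probe set gave 0.78, and other Tle3 probe sets, with means under the filter level, gave -0.16 and -0.09. Without 16-20 somites replicate 1 Tle1 had 0.12, and Tle3 had 0.08 without 16-20 somites replicate 3 and 0.07 without 26-30 somites replicate 2.

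For Eya1, 6 of 8 measured genes of the Eya, sine oculis and Dach families were tested, 4 with positive and 2 with negative differences and a median of 0.18. The positive count and the median include Six5, which passed the filter only through its later arrays, so nothing is read from them. Six5, a sine oculis homeodomain gene, had 171 ± 40.6 at 26-30 somites and 39.8 ± 22.7 at 16-20 somites. All 3 of its values at 16-20 somites (13.6, 53.9 and 51.8) were under the filter level, so the gene was tested only because it was higher later, and no log2 difference is given for it. Dach2, a nuclear cofactor of the same network, had 669 ± 7.03 and 305 ± 118 (1.14 ± 0.29, adjusted p of 0.317). All 3 later arrays of Dach2 lay above the earlier ones. Eya3 had -0.22 ± 0.20 (adjusted p of 0.690) with all later arrays below and 0.20 in its other probe set, and Six2 had 0.22 ± 0.31 (adjusted p of 0.812). Eya3 had -0.14 without 26-30 somites replicate 1, and Six2 had -0.08 without 26-30 somites replicate 2 and 0.51 without replicate 3.

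Of the factors of the pouches, thymus, parathyroid and thyroid, 7 of 12 measured genes were tested, with 5 positive and 2 negative differences and a median of 0.04. Hhex, a homeobox gene of foregut endoderm, thyroid and liver, had the same direction as Ripply3 and Tbx1, with 255 ± 43.5 at 26-30 somites and 529 ± 340 at 16-20 somites (-0.83 ± 0.35, adjusted p of 0.410). Its values at 16-20 somites were 310.6, 920.6 and 356.4, the high one on the array with high liver markers, and without that array the difference was -0.36. Tbx2, a T-box repressor, had 0.63 ± 0.26 (adjusted p of 0.398), and Bmp4, a BMP ligand, 0.47 ± 0.34 (adjusted p of 0.606). These 2 genes of the list had all later arrays above, and 2 others, Hhex among them, had all later arrays below. Hoxa3, a homeobox gene needed for the thymus and parathyroid glands, had 0.52 ± 0.37 (adjusted p of 0.593) with overlap. Without 16-20 somites replicate 2 Tbx2 had 0.41, and Hoxa3 had 0.79 without replicate 1 and 0.28 without replicate 3 of that stage.

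Among other T-box genes, 8 of 13 were tested, with 4 differences positive and 4 negative and a median of 0.00. Beside Tbx2, the genes with all later arrays above were Tbx5, of the heart and lung fields (1.24 ± 0.47, adjusted p of 0.375), and Eomes. Their dim second probe sets gave 0.23 and 0.02. Eomes had 167 ± 37.7 at 26-30 somites and 69.3 ± 44.8 at 16-20 somites, where 2 of 3 arrays were under the filter level (29.2 and 61). It was tested only through its later arrays, so no log2 difference of its tested probe set is given. The counts and the median of this list include it. Tbx20, a cardiac T-box gene, had -0.17 ± 0.24 (adjusted p of 0.808), and -0.29 to -0.07 without single arrays. Of 5 other PAX genes on the array only Pax6, an eye and neural factor, passed the filter, with -0.07 ± 0.32 (adjusted p of 0.941), and its sign depended on which array was left out (-0.27 to 0.14).

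**Figure D5:**
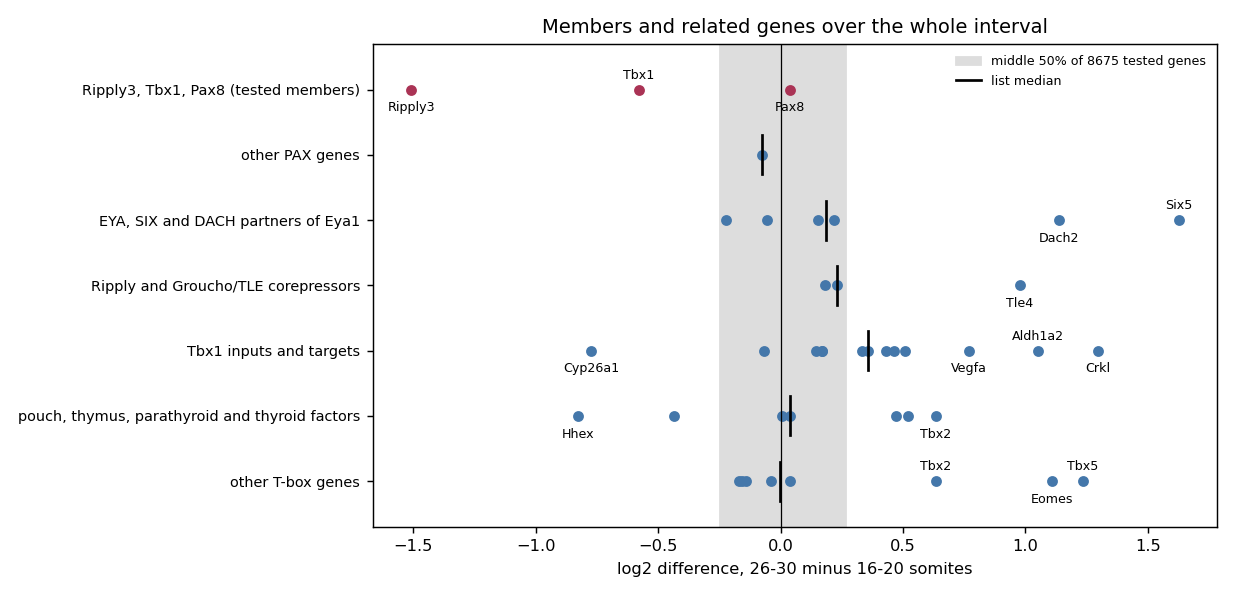
Log2 differences of 26-30 minus 16-20 somites for the 3 members above the filter level and for the tested genes of each related list (points), with list medians (black bars) and the middle 50% of 8675 tested genes (grey band). Ripply3 at -1.51 lies left of every other plotted gene, and 11 of 13 genes in the Tbx1 list lie right of 0. The mean of that list was lowest on 16-20 somites replicate 2. Six5, Eomes and Cyp26a1 are plotted although each was tested only through the stages where it was higher.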

How the data were processed

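RNA was measured in 9 pools of dissected mid-foregut, 3 for each somite stage, on 1 Affymetrix array each. Per the labels' protocols, 2 amplification rounds were run on 100 ng of RNA. The authors deposited MAS5 signal intensities, per the submitters' processing notes. No source used here states the software version or the scaling target, and detection calls were not used. The trimmed mean of every array (2% at each end) was 500.2 to 500.3, and values were used without further normalization.

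Of 22690 probe sets, 20380 had 1 symbol in the platform annotation; 64 controls, 691 probe sets with several symbols and 1555 with none were left out. A gene was read from its probe set of highest mean. Signals were taken to log2 after adding 26.1, the 20th percentile of all values, and 8675 of 12393 genes at or above the 30th percentile of gene means were tested in limma 3.58.1 (R 4.3.3; lmFit, eBayes with a trend, all 9 arrays, two-sided, Benjamini-Hochberg at 0.05). The fit was also run on data simulated with independent normal noise, without the array differences described above, and no result is read from it. Replicates came from separate pools; 0 pairs of arrays were identical.

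The members and lists were chosen with earlier results of these data known. Named genes were all members, up to 4 genes of each related list with the widest whole-interval difference, the 2 brightest genes of each marker list and those whose highest array exceeded 4 times their median, and the 3 genes closest to each tested member. Shh, Foxc2, Oc90, Krt18, Krt19, Spint1, Spint2 and Sox2 were added after their values were seen. Alternatives were other normalizations, pseudocounts, filters, variance models, probe set rules and subsets of arrays; values relative to endoderm markers, together and singly, were added after seeing the data. Promoter sequences are from RefSeq (GRCm38.p6).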

Additional observations from a re-analysis of the deposited data

How the results depend on the processing

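The whole-interval difference kept its sign under 23 alternatives for Ripply3 (-2.25 to -1.16) and Tbx1 (-0.92 to -0.42), as did the second step (-1.36 to -0.63 and -0.80 to -0.41). The values of -2.25, -0.92 and -1.36 come from fits in which 26-30 somites replicate 3, the lowest array for both genes, stands alone for the last stage. Relative to single endoderm markers, chosen after seeing the data, Ripply3 gave -2.55 to -0.20 and Tbx1 -1.62 to 0.73. Pax9, which is under the filter level, also kept its sign over the whole interval (-1.44 to -0.26). Pax8, Pax1 and Eya1 changed sign over the whole interval under 2, 3 and 4 alternatives. The median over all 6 members was -0.31 over the whole interval, and -0.15 with 4 times the pseudocount, -0.57 with the 3 narrow-range arrays left out and -0.69 with 16-20 somites replicate 2 left out too; leaving out single arrays gave -0.38 to -0.17, the smaller without 26-30 somites replicate 3. In the first step it was 0.09, with -0.06 to 0.16 without single arrays (-0.06 without 21-25 somites replicate 1), -0.11 with the narrow-range arrays and 16-20 somites replicate 2 left out, and 0.37 relative to endoderm markers. In the second step it was -0.38, with -0.59 with the pseudocount divided by 4, -0.18 at 4 times, -0.66 relative to endoderm markers, and -0.58 (without 21-25 somites replicate 2) to -0.33 without single arrays. The causes were not tested.

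The count of 0 genes called by limma over the whole interval became 731 with array weights, or 8.43%, and 4 with only the 6 arrays compared. Without single arrays this count was 0 to 1. In the first step it was 0 to 3 without single arrays and 1 with the narrow-range arrays left out, and in the second step 29 with array weights and 0 without any single array. With the replicate number as a block the median over the members was -0.31, 0.09 and -0.38 and the counts were 0. The numbers did not pair the arrays: deviations of same-numbered arrays correlated from -0.28 to 0.26 across genes, and 2 of 9 arrays correlated best with their own number. Signals under the filter level, as for Pax1 and Pax9, limit what can be said of those genes.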
